A study of Mus musculus with 8 samples.

Results

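The cells described here are cycling T cells, that is, T lymphocytes in the act of dividing, from MC38 tumours, which grow from a mouse colon carcinoma cell line. They were chosen from single-cell RNA data by a rule on unique molecular identifiers (UMIs), each of which stands for 1 captured RNA molecule. A cell barcode qualified with at least 2 UMIs of the T cell receptor chains Cd3d, Cd3e and Cd3g together, at least 3 UMIs of the division genes Mki67, Top2a, Birc5 and Cdca3 together, and fewer than 100 UMIs per 10000 of the phagocyte genes C1qa, C1qb, C1qc, Apoe and Lyz2. The rule found 671 cycling T cells among 37757 barcodes. They are set against 2320 non-cycling T cells, which met the Cd3 and phagocyte limits with no UMI of the 4 division genes. CD45+ immune cells had been sorted from tumours of wild-type mice, and 4 libraries were sequenced. 2 libraries came from mice labelled control and 2 from mice treated with LNP-Sirpa, an agent that the study's title describes as directed at degrading SIRPα in the tumour. All 4 libraries carry 1 batch label, and the labels leave out how the controls were handled, the age of the mice, the time of sampling and whether replicates are separate animals. P-values therefore measure the spread between these libraries, which may be technical.

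T cells that meet their antigen with costimulation divide, copying their DNA in S phase and separating the copies in G2 and M phases, and the daughters become killers, helpers or regulators. In tumours the dividing pool holds CD8 cells, which can kill tumour cells with granzymes and perforin, and Foxp3+ regulatory cells, which restrain other T cells. SIRPα is a receptor of macrophages and dendritic cells that, on binding CD47, holds back phagocytosis. T cells are not its main site of expression.

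The libraries held 7511 and 10890 barcodes for control 1 and 2, and 10348 and 9008 barcodes for LNP-Sirpa 1 and 2. Total depth ran from 68654004 to 90789729 UMIs a library. Control 1 gave 46 cycling T cells, control 2 gave 98, LNP-Sirpa 1 gave 365 and LNP-Sirpa 2 gave 162. LNP-Sirpa 1 thus supplied more of the cells than the other 3 libraries together, and the control sums were the shallowest, with 829943 and 1511338 UMIs against 5399242 and 2192043. Values below are given in the order control 1, control 2, LNP-Sirpa 1, LNP-Sirpa 2. Median depth per cycling T cell was 13823, 11731.5, 12268 and 10374.5 UMIs, against 4377, 4737, 4874.5 and 3945 UMIs in non-cycling T cells. Barcodes were running numbers, so names recur between libraries (830 to 1242 per pair), but 0 of the recurring names shared their UMI and gene totals.

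Markers that the rule did not use were read as a check of the label. Cd3e, a signalling chain of the receptor, had a UMI in 82.6%, 88.8%, 88.8% and 90.1% of the cycling T cells, but the rule chose the cells on it, so this is no check. Trac, the constant gene of the receptor's alpha chain, had a UMI in 73.9%, 83.7%, 86.0% and 87.7%. For comparison, macrophage-type barcodes were taken with at least 500 phagocyte UMIs per 10000 and fewer than 2 Cd3 UMIs. There were 166, 839, 80 and 35 of them, with medians of 6922, 6873, 8061.5 and 7378 UMIs. The limit on Cd3 UMIs leaves out barcodes with T cell RNA, so their values for T cell genes may understate the free RNA. Pclaf, a partner of the DNA clamp PCNA, had a UMI in 69.6%, 75.5%, 78.9% and 81.5% of the cycling T cells and in 7.59%, 7.24%, 7.13% and 5.73% of non-cycling T cells. The cycling cells were deeper than both comparison classes. Summed over cells, Pclaf stood at 318, 384, 454 and 458 CPM (counts scaled to a total of 1000000 UMIs), which is a level for the whole class of cells in a library.

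Some of the cells also held RNA of other cell types. No UMI of the receptor constant genes Trac, Trbc1 or Trbc2 was found in 3, 9, 12 and 10 of them. Summed macrophage and monocyte markers stood at 9705, 6768, 11725 and 13489 CPM in the cycling T cells, against 37259, 42581, 49479 and 49629 CPM in the macrophage-type barcodes. Fibroblast markers stood at 1245, 1728, 876 and 1194 CPM, with Lum at 0. This list includes Thy1, which T cells also express. NK cell markers stood at 3247, 1745, 2829 and 3043 CPM. The same list stood higher in the macrophage-type barcodes, at 11337, 10038, 10115 and 10884 CPM, so its sum does not single out NK cell RNA. Ncr1, an NK cell gene, stood at 49.4, 11.2, 17.04 and 1.82 CPM in the cycling T cells. The part of NK cells in the sum was not tested. Dendritic cell markers stood at 257, 169, 108 and 84 CPM and B cell markers at 101, 74, 60 and 30 CPM, with Iglc2 and Mzb1 at 0. Neutrophil markers stood at 245, 97.3, 370.1 and 226 CPM, and S100a8, a calcium-binding protein of neutrophils, had a UMI in 8.70%, 0%, 34.0% and 15.4% of the cells. Macrophage sums were thus higher in both LNP-Sirpa libraries, neutrophil sums overlapped while S100a8 was found in more cells of both LNP-Sirpa libraries, fibroblast, dendritic and B cell sums were higher in both controls, and NK sums overlapped. A stricter gate, added after these values were seen, asked for at least 3 UMIs of Trac, Trbc1 and Trbc2. It also asked for fewer than 10 UMIs per 10000 of the fibroblast genes other than Thy1. This receptor gate kept 36, 75, 314 and 121 cells, 546 in all. In them the fibroblast list with Thy1 stood at 730, 703, 679 and 786 CPM and macrophage markers at 9275, 7696, 11591 and 12369 CPM. Without Thy1, the cells left out held 621, 1935, 1455 and 1380 of the 762, 2102, 2370 and 1850 fibroblast UMIs. The macrophage sums thus stayed higher in both LNP-Sirpa libraries under this gate. The 10, 23, 51 and 41 cells it left out were deep in the controls, with medians of 26865, 23489, 11270 and 13080 UMIs, and held 37.8%, 37.8%, 13.5% and 31.9% of all UMIs of the cycling T cells. Treatment effects of the leading genes are given with and without these cells, and the part of other cells' RNA in them was not tested.

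The limits of the rule cut through continuous distributions. 97 of the cells had exactly 3 UMIs of the 4 division genes, while 217 T cells just outside had 2 and 747 had 1. 67 had exactly 2 Cd3 UMIs. On the phagocyte limit, 42 lay between 90 and 100 per 10000 and 46 barcodes that met the other limits lay between 100 and 110. The phagocyte limit was the one that weighed unequally on the groups. Before it, 176, 389, 724 and 306 barcodes met the Cd3 and division limits, and it kept 26.1%, 25.2%, 50.4% and 52.9% of them.

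Cycling T cells made up 0.612% and 0.900% of all barcodes in controls 1 and 2, and 3.53% and 1.80% with LNP-Sirpa. The groups did not overlap, with means of 0.756% ± 0.203 (SD, n = 2) and 2.66% ± 1.22 (SD, n = 2), a difference of 1.91 percentage points. The two-sided exact permutation p was 0.333, which is the smallest that 2 libraries against 2 can give. T cells of all kinds, cycling or not, showed the same order of groups, at 3.71%, 5.99%, 17.8% and 13.1% of barcodes. Without the phagocyte limit the shares of barcodes were 2.34%, 3.57%, 7.0% and 3.40%, and the groups overlapped (exact permutation p = 0.667). A share of sorted cells moves with every other cell type in the sort, so more cycling T cells and fewer other cells cannot be told apart.

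Among T cells, the share in cycle did not separate the groups. It was 16.5% and 15.0% in the controls and 19.8% and 13.8% with LNP-Sirpa, a difference of 1.00 percentage point with an exact permutation p of 1. LNP-Sirpa 1 was the highest and LNP-Sirpa 2 the lowest of the 4. Without LNP-Sirpa 1 the difference was -2.01 points, and without the phagocyte limit it was -5.81 points. When every barcode was thinned to 2000 UMIs before the rule was applied, 6, 23, 101 and 43 cells qualified, and the shares of T cells were 2.80%, 4.47%, 7.74% and 5.07%. At that equal depth the groups did not overlap, with an exact permutation p of 0.333, again the smallest possible.

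**Figure D1:**
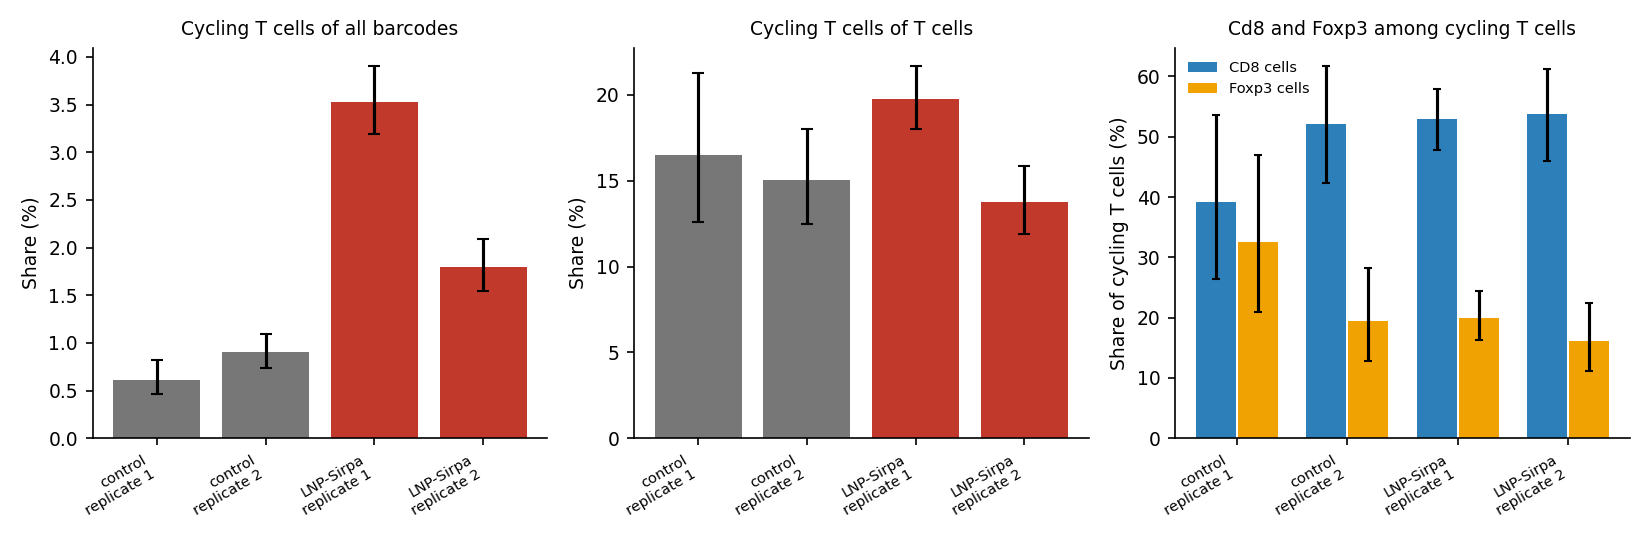
Shares of cycling T cells per library (%, bars) with 95% Wilson intervals for counting error: of all barcodes (left), of T cells (middle), and the CD8 and Foxp3 cells among the cycling T cells (right). Control bars are grey and LNP-Sirpa bars red in the first panels, where the share of barcodes ran from 0.612% to 3.53% without overlap of the groups while the share of T cells ran from 13.8% to 19.8% with overlap.

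CD8 cells outnumbered Foxp3 cells among the cycling T cells of every library, narrowly in control 1. A cell with at least 2 UMIs of Cd8a and Cd8b1, the CD8 coreceptor chains, and no UMI of Foxp3, the transcription factor of regulatory T cells, was counted as CD8. There were 18, 51, 193 and 87 such cells, or 39.1%, 52.0%, 52.9% and 53.7% of the cycling T cells. Foxp3 cells without Cd8 numbered 15, 19, 73 and 26, or 32.6%, 19.4%, 20% and 16.0%. Another 0, 1, 27 and 8 cells carried both Foxp3 and Cd8 UMIs, with median depths of 18962 and 19249.5 UMIs in the LNP-Sirpa libraries, above the class as a whole. The remaining cells had Cd4 alone (4, 8, 24 and 14) or none of these genes (9, 19, 48 and 27). With a phagocyte limit of 50 the order in control 1 was the opposite (28.6% CD8 and 35.7% Foxp3), and after thinning before the rule was applied both shares were 21.7% in control 2.

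Control 1 stood apart in this split. The ratio of CD8 to Foxp3 cyclers was 1.20 there, against 2.68, 2.64 and 3.35 in control 2 and the LNP-Sirpa libraries, and among non-cycling T cells it was 0.722, 3.25, 1.91 and 2.12. The CD8 share of cycling T cells was 7.70 percentage points higher with LNP-Sirpa (exact permutation p = 0.333, the smallest possible) and the Foxp3 share differed by -7.97 points (exact permutation p = 0.667). Control 2 lay within 1 percentage point of LNP-Sirpa 1 on both. After thinning, the CD8 difference was -1.77 points, of the opposite sign. The CD8 shares under the receptor gate were 41.7%, 64.0%, 56.4% and 61.2%, which overlapped.

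Both subsets held dividing cells. Within CD8 T cells 20.5%, 13.3%, 24.2% and 16.1% were in cycle, and within Foxp3 T cells 14.9%, 17.6%, 19.4% and 11.2% were. Neither set separated the treatment groups. Summed over all cycling T cells, Cd8a stood at 79.5, 161, 207 and 177 CPM, Cd8b1 at 151, 238, 285 and 306, Cd4 at 48.2, 33.7, 46.5 and 34.7, and Foxp3 at 67.5, 75.4, 85.8 and 49.7. None of these 4 genes passed the treatment test.

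Beyond the 4 genes of the rule, the cells carried many other division genes, which the rule brings along and which are therefore given without a test. Pclaf averaged 16.1-fold above non-cycling T cells (ratio of mean CPM plus 10). Stmn1, which destabilises microtubules, stood 11.5-fold higher. Ube2c, which lets the anaphase-promoting complex mark cyclins for destruction, stood 10.0-fold higher and Cenpf, a kinetochore protein, 9.31-fold. Further down the order came Cks1b (7.24-fold), Cdca8 (7.10-fold), the linker histone H1f5 (7.07-fold), Ccnb2 (6.88-fold), Tpx2 (6.71-fold) and Spc24 (6.34-fold). Cdca8, Ccnb2, Tpx2 and Spc24 belong to the mitotic kinase, spindle and kinetochore machinery.

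Genes that stood lower in the cycling cells included several secreted products. The chemokine Ccl5 averaged 1086 CPM in cycling and 3000 CPM in non-cycling T cells, 2.75-fold lower. Il10, an anti-inflammatory cytokine, was 2.64-fold lower, Ccl1 2.52-fold, the chemokine Xcl1 2.13-fold and the costimulatory receptor Cd27 2.06-fold. Genes of this contrast were named only if they differed in the same direction in all 4 libraries, so that agreement was set by the choice. Deeper cells and a different cell mix go with the same contrast, and their part in it was not tested.

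Promoters of the division genes are shown because G2 and M phase genes are known to be switched on together through short elements before their starts. The windows are the 250 bases before the RefSeq start on build GRCm38.p6, which is not the build of the counts. In Ccnb2 (cyclin B2, minus strand, chr9:70421555-70421804) and Top2a (topoisomerase II alpha, minus strand, chr11:99024190-99024439), capitals mark CCAAT on either strand and, in Ccnb2, also TTTGAA, a form of the cell cycle homology region. The Top2a window holds TTTGAA as well, on both strands, left in lower case. The sequences read 5′ to 3′ on the gene's strand.
Ccnb2: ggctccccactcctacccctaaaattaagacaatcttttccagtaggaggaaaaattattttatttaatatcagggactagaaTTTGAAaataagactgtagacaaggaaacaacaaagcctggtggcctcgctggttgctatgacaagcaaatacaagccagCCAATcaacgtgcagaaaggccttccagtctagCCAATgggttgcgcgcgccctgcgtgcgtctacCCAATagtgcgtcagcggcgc
Top2a: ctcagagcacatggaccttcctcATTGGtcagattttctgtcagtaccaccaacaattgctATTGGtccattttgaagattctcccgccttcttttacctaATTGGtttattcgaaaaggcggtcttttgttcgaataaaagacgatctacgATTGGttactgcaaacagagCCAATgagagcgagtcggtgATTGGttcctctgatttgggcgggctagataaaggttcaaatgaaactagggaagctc
Of the 45 genes of a fixed G2/M list, 39 had a promoter in the table. Of these, 29 (74.4%) held CCAAT on either strand, against 37.5% of all 27025 genes with a promoter. TTTGAA or TTTAAA stood in 19 (48.7%), against 28.1% of all genes. The E2F forms TTTCCCGC, TTTGGCGC and TTCCCGCC stood in 0, against 3.10%. In a fixed S phase list 72.5% of genes had a promoter in the table, and no count over it is given. Whether these shares are particular to G2/M genes was not tested. These are letter matches in a window and show no binding.

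The balance of phases did not separate the groups. Over 2 fixed lists that leave out the 4 division genes of the rule, S phase genes took 43.3%, 38.7%, 42.8% and 42.6% of the UMIs of both lists. The difference of 1.71 percentage points had an exact permutation p of 1, and its sign changed under 4 of the other settings. Hmgb2, a chromatin protein of dividing cells, stood at 909, 1296, 1212 and 1313 CPM, Pcna, the replication clamp, at 113, 126, 116 and 134 CPM, and Cdk1, the mitotic kinase, at 80.7, 134, 73.2 and 94.0 CPM. In all 3 the groups overlapped.

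CD8 and Foxp3 cyclers differed in their products. The split used Cd8a, Cd8b1 and Foxp3, so the contrast is a description with no test. Gzmf, a granzyme of activated killers, averaged 938 CPM in CD8 and 26.8 CPM in Foxp3 cyclers, 25.7-fold higher, and Ifng, interferon gamma, 389 and 20.9 CPM, 12.9-fold higher. The lectin-like receptors Klrc1 and Klrd1, whose products pair on killer cells, were 8.23-fold and 7.83-fold higher, and Gzme, Gzmg and Gzmd 7.54-fold, 7.39-fold and 6.84-fold higher. Ly6c2, a memory marker of CD8 cells, was 7.97-fold higher. The granzyme levels rested on few cells: 5 cycling T cells held 97.6%, 93.5%, 62.3% and 74.2% of the Gzmf UMIs and 95.7%, 98.7%, 64.6% and 90.5% of the Gzmg UMIs of their library. For Gzmd the share was 90.1%, 98.7%, 56.7% and 86.2%, and for Gzme 91.6%, 97.8%, 61.8% and 87.1%.

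On the Foxp3 side stood the known equipment of regulatory T cells. Izumo1r (folate receptor 4) was 10.5-fold higher than in CD8 cyclers, the growth factor Areg 7.98-fold, Il10 6.81-fold and Klrg1 6.68-fold. Ikzf2, the transcription factor Helios, averaged 979 CPM against 190 CPM, 4.94-fold higher. Il2ra (the high-affinity chain of the interleukin 2 receptor), Icos and Tnfrsf4, which are costimulatory receptors, were 4.78-fold, 4.73-fold and 4.67-fold higher, and Penk, the enkephalin precursor, 4.33-fold. Genes were named on either side only if they differed in 1 direction in all 4 libraries, so that agreement was set by the choice. Klrk1 and Ms4a4b entered the CD8 side and Ramp1 and Itgb7 the Foxp3 side of the leading genes when the receptor gate was applied.

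**Figure D2:**
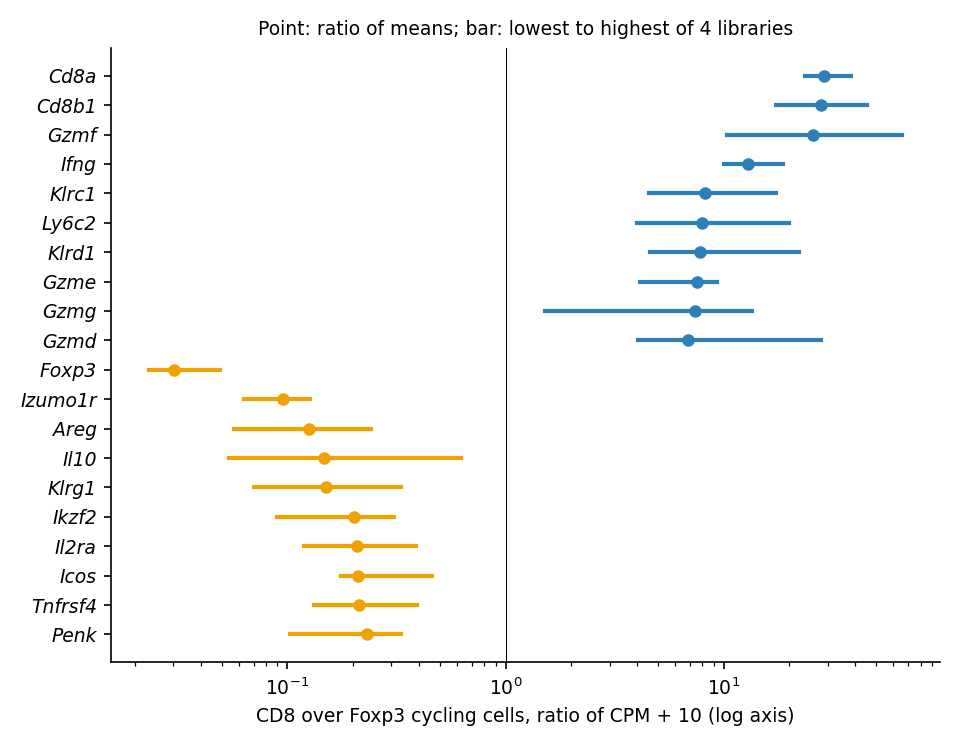
Ratio of CD8 over Foxp3 cycling cells (CPM plus 10, log axis) for the 10 leading genes of each side. Points are ratios of the means over 4 libraries and bars run from the lowest to the highest library. Blue genes, led by Cd8a, Cd8b1 and Gzmf, lie right of 1 and orange genes, led by Foxp3 and Izumo1r, lie left of 1. Only genes on the same side of 1 in every library were eligible.

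LNP-Sirpa was compared with control on UMI counts summed over the cycling T cells of each library, with edgeR's quasi-likelihood test and Benjamini-Hochberg adjustment over all genes. Of 10232 genes tested, 58 (0.567%) passed an adjusted p of 0.05, 39 (0.381%) higher and 19 (0.186%) lower with LNP-Sirpa. 1085 genes had an unadjusted p under 0.05. With the receptor gate 70 of 8970 genes passed (0.78%), 62 higher (0.691%) and 8 lower (0.0892%), and 32 genes were called both ways. The higher genes included the interferon-stimulated Zbp1, Oasl2 and Ly6a, the macrophage genes Nos2 and Cxcl9, and Gzmb, while Gzmc and Ccl17 were among the lower ones.

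Sirpa itself, the target, stood at 233, 102, 147 and 135 CPM in the cycling T cells and at 631, 582, 523 and 361 CPM in the macrophage-type barcodes. It did not pass the test in cycling T cells (log2 fold change -0.21 ± 0.34 SE, edgeR adjusted p = 0.915), and the groups overlapped. Cd47, the ligand of SIRPα on most cells, stood at 227, 228, 408 and 306 CPM and was not called (log2 fold change 0.66 ± 0.23 SE, edgeR adjusted p = 0.285), though the groups did not overlap. Both controls lay below both LNP-Sirpa libraries for Cd47.

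**Figure D3:**
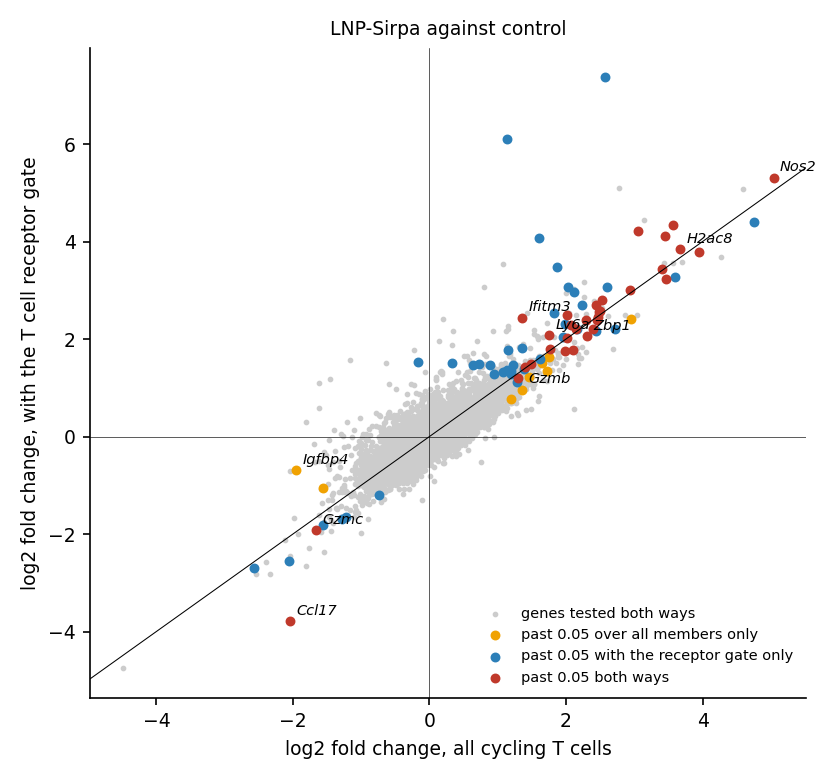
Log2 fold change of LNP-Sirpa against control in all 671 cycling T cells (x axis) and in the 546 that passed the receptor gate (y axis), 1 point per gene tested both ways. Red genes passed 0.05 both ways (32), and the diagonal marks equal effects. Gzmc and Ccl17 lie at the lower left, Nos2 and H2ac8 at the upper right, and Igfbp4 lies nearer to 0 with the gate.

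Type I interferon response genes were higher in cycling T cells of the LNP-Sirpa libraries. This fixed list had 45 members, of which 39 passed the filter on low counts. 6 rose (Zbp1, Oasl2, Ifi27l2a, Ifi204, Bst2 and Ly6a) and 0 fell, and the median log2 fold change was 1.84, against -0.00 over all genes tested. Summed over the list the cycling T cells held 2576 and 2467 CPM in the controls and 9589 and 5154 CPM with LNP-Sirpa. LNP-Sirpa 1 held the highest sum. Without that library 6 members passed, with a median of 1.04, and Ifi204 was not among them.

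Zbp1, a sensor of left-handed nucleic acid, stood at 45.8 and 29.8 CPM in the controls and 254 and 110 CPM with LNP-Sirpa (log2 fold change 2.31 ± 0.39 SE, edgeR adjusted p = 0.0432). It had a UMI in 45.7%, 32.7%, 83.0% and 59.9% of the cells. Ifi27l2a, an interferon-induced mitochondrial protein, stood at 321, 378, 1869.9 and 902 CPM, a log2 fold change of 1.98 ± 0.31 SE (edgeR adjusted p = 0.0232). Ifi27l2a had a UMI in 76.1%, 82.7%, 95.9% and 87.0% of the cells, so most cells of every library carried it, controls included. The CPM levels of the groups did not overlap for either gene. Ly6a (Sca-1), a surface protein of activated T cells that interferon induces, stood at 294, 498, 1404 and 1247 CPM (log2 fold change 1.75 ± 0.28 SE, edgeR adjusted p = 0.0232). It had a UMI in 73.9%, 71.4%, 94.0% and 97.5% of cells.

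Oasl2, of the antiviral oligoadenylate synthetase family, stood at 10.8, 7.94, 105 and 45.2 CPM (log2 fold change 3.05 ± 0.44 SE, edgeR adjusted p = 0.0209). Bst2 (tetherin), which holds budding virus at the membrane, stood at 113, 91.3, 329 and 203 CPM (log2 fold change 1.39 ± 0.27 SE, edgeR adjusted p = 0.0441). Others of the list with large values missed the threshold. Rsad2 (viperin) stood at 30.1, 28.5, 410 and 112 CPM with an adjusted p of 0.164, and Isg15, a ubiquitin-like modifier, at 183, 116, 782 and 284 CPM with an adjusted p of 0.208. In both, the LNP-Sirpa libraries lay far apart and above the controls.

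**Figure D4:**
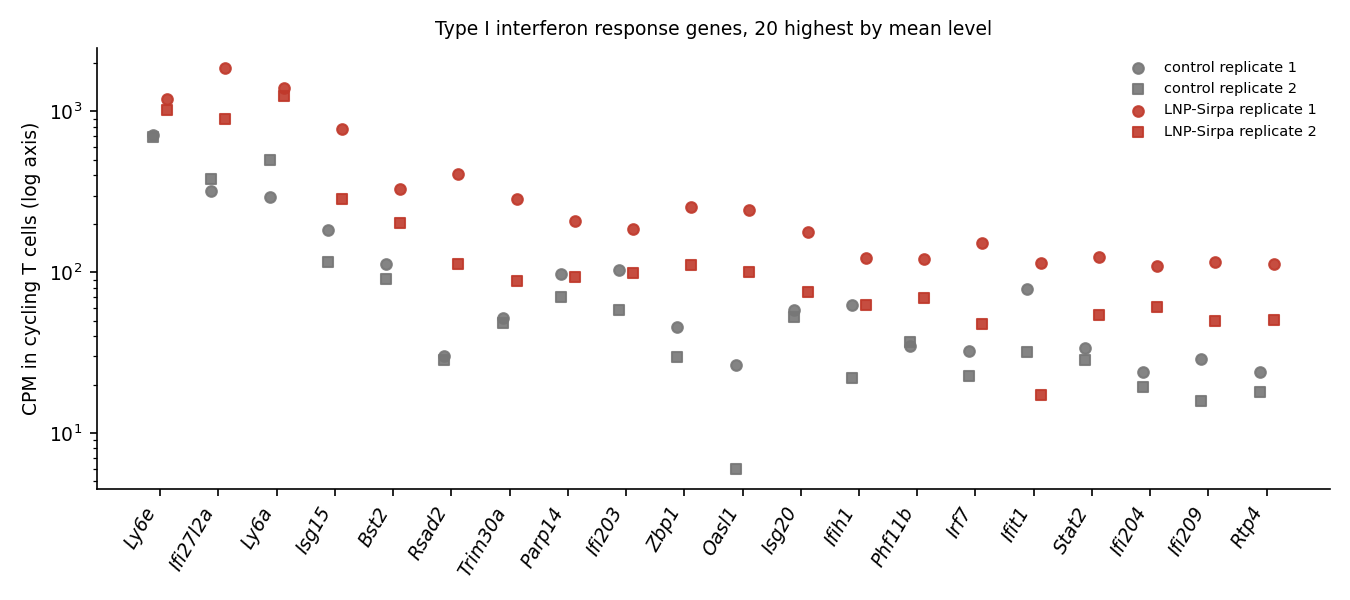
CPM (log axis) of the 20 type I interferon response genes with the highest mean level in cycling T cells, by library. Grey symbols are controls, red symbols LNP-Sirpa, circles replicate 1 and squares replicate 2. For Ifi27l2a, Ly6a, Isg15 and Rsad2 both red symbols lie above both grey ones, with LNP-Sirpa 1 the highest.

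Both subsets showed the higher levels, and so did other cells of the tumour. Ly6a stood at 210, 188, 1128 and 980 CPM in CD8 cyclers and at 352, 778, 2155 and 2046 CPM in Foxp3 cyclers. Ifi27l2a stood at 263, 287, 1597 and 638 CPM in CD8 and at 545, 891, 2920 and 2265 CPM in Foxp3 cyclers. No test was made within the subsets, since a control library held fewer than 20 cells of each. In the macrophage-type barcodes the list summed to 2644, 2317, 12176 and 5380 CPM, against 2576, 2467, 9589 and 5154 CPM in the cycling T cells. Control 1 and both LNP-Sirpa libraries thus stood higher in the macrophage-type barcodes, and control 2 stood lower. LNP-Sirpa 1 was the highest in both classes. Free RNA of other cells moves with this result, and its part in it was not tested.

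Under the receptor gate 10 of 36 members of the list rose and 0 fell, with a median of 1.79. Ly6a then had a log2 fold change of 2.07 (edgeR adjusted p = 0.000191), Zbp1 of 2.05 (0.00708 by the same test), Ifi27l2a of 1.75 (0.00905), Bst2 of 1.44 (0.0174) and Oasl2 of 4.22 (0.0187). In non-cycling T cells 4 rose, with a median of 1.88. The number of calls depended on how the cells were chosen: 1 member passed with the stricter cell filter, 2 with at least 5 division UMIs, and 1 each with a phagocyte limit of 200 or none. With a limit of 50 in place of 100 per 10000, 0 members passed in edgeR, with a median log2 fold change of 1.49 and 35 of 37 above 0.

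The promoter of Bst2 is shown because it holds the letters of the interferon-stimulated response element, the site of the factors that interferon activates. The window is chr8:71537473-71537722, minus strand, of RefSeq build GRCm38.p6, and capitals mark GAAA, any 2 bases and GAAA again, on either strand.
Bst2: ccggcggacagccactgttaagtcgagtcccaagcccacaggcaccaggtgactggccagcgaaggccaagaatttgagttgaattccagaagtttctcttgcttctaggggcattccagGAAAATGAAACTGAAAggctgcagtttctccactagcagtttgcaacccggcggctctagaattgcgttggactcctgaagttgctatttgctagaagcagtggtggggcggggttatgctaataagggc
The capitals hold 2 matches that overlap. The same motif was found in 3.46% of all 27025 genes with a promoter. Of the interferon list 32 of 45 members had a promoter in the table, 71.1%, which is under the share needed for a count over the list to be valid, so none is given. Oasl2 and Gzmb had no match in this window.

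Genes driven by interferon gamma and the MHC class I pathway gave 1 call. Of 24 tested interferon gamma response genes 1 rose and 0 fell, with a median log2 fold change of 0.88. The gene was Iigp1, a GTPase that attacks the vacuoles of parasites, at 16.9, 30.4, 171 and 106 CPM (log2 fold change 2.49 ± 0.33 SE, edgeR adjusted p = 0.0117). This call was lost with a phagocyte limit of 50 or 200, with no phagocyte limit, and with at least 5 division UMIs. Of 20 MHC class I genes 0 passed in edgeR, while 20 of 20 had a fold change above 0, with a median of 0.52. B2m, the light chain of class I, stood at 1945, 1699.8, 2373 and 2390 CPM, and the immunoproteasome subunit Psmb10 at 161, 167, 313 and 263 CPM (edgeR adjusted p = 0.61 and 0.157). For both genes the LNP-Sirpa libraries lay above the controls.

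Among the killing genes 2 were called, in opposite directions. Of 19 tested members of the cytotoxic granule and death ligand list 1 rose, Gzmb, and 1 fell, Gzmc, and the median log2 fold change was 0.26. Granzymes are serine proteases that perforin lets into the target cell, and Gzmb is the one that activates caspases.

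Gzmb stood at 222 and 195 CPM in the controls and 535 and 512 CPM with LNP-Sirpa (log2 fold change 1.35 ± 0.23 SE, edgeR adjusted p = 0.0289). It had a UMI in 52.2%, 60.2%, 72.1% and 64.2% of the cells, against 5.42%, 3.22%, 17.5% and 11.4% of macrophage-type barcodes. The groups did not overlap on either scale. In CD8 cyclers its level was 385, 318, 597 and 643 CPM. With the receptor gate the log2 fold change was 0.96 and the edgeR adjusted p 0.0958, and the gene also missed the threshold without control 2, with the stricter cell filter, with a phagocyte limit of 50 and with at least 5 division UMIs.

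Gzmc stood at 2454 and 1581 CPM in the controls and 783 and 481 CPM with LNP-Sirpa (log2 fold change -1.67 ± 0.29 SE, edgeR adjusted p = 0.0341). Among cells that passed the receptor gate the levels were 3363, 2528, 866 and 702 CPM, with a log2 fold change of -1.92 and an edgeR adjusted p of 0.000398. Few cells carried most of it. The 5 cells with the most Gzmc held 78.0%, 96.7%, 44.3% and 92.5% of its UMIs. A UMI was found in 54.3%, 38.8%, 43.3% and 20.4% of cells, against 28.9%, 16.4%, 20% and 0% of macrophage-type barcodes. The part of free RNA in the Gzmc values was not tested. The call was lost with a phagocyte limit of 50 or 200, with no phagocyte limit, and with at least 4 Cd3 UMIs.

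The neighbours of Gzmc in the granzyme cluster did not pass the test. Gzmd stood at 280, 1091, 89.8 and 168 CPM (edgeR adjusted p = 0.449) and Gzme at 158, 454, 48.5 and 56.6 CPM (edgeR adjusted p = 0.142). Gzmf stood at 613, 2143, 228 and 687 CPM, with overlap of the groups. Gzmg rested on 69, 611, 65 and 21 UMIs. Control 2 was the highest for all 4. These genes are close copies of each other, and how reads were shared among them is not given in the sources used here. Gzma, at 630, 64.8, 405 and 464 CPM, and Prf1 (perforin), at 236, 242, 332 and 271 CPM, were not called either, with adjusted p-values of 0.969 and 0.677.

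**Figure D5:**
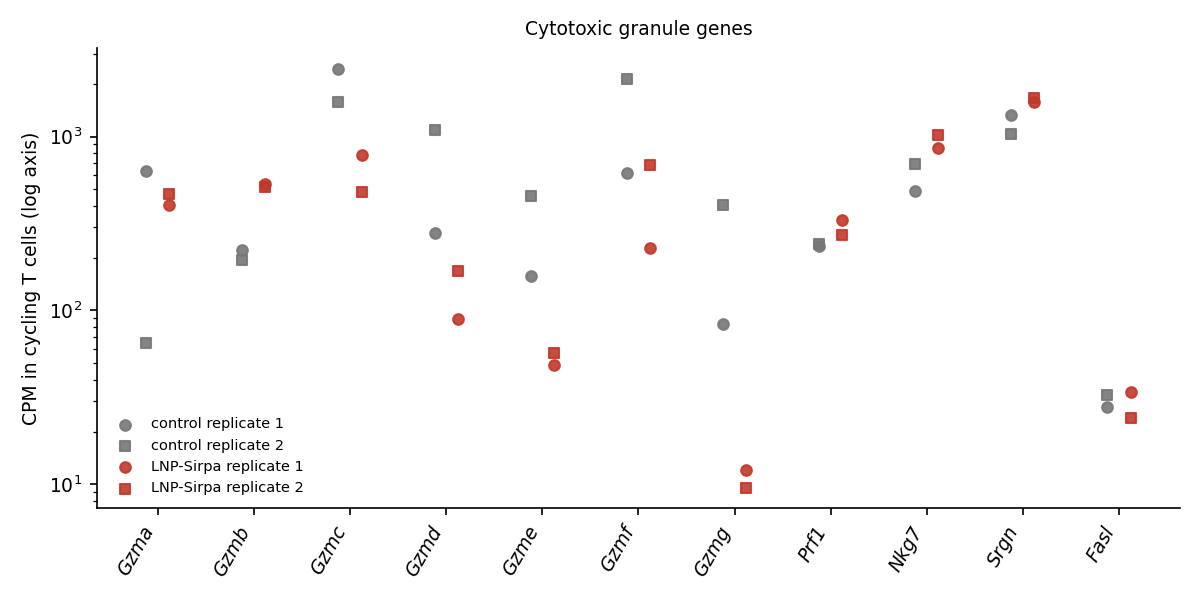
CPM (log axis) of cytotoxic granule genes in cycling T cells, by library. Grey symbols are controls, red symbols LNP-Sirpa, circles replicate 1 and squares replicate 2. Gzmb is higher (512 to 535 against 195 to 222 CPM) and Gzmc lower (481 to 783 against 1581 to 2454 CPM) in both LNP-Sirpa libraries, while Gzma and Gzmf overlap.

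A replication histone gave the steepest change among the division genes. H2ac8, a gene for histone H2A that is expressed in S phase, had 1, 8, 343 and 70 UMIs, or 1.20, 5.29, 63.5 and 31.9 CPM (log2 fold change 3.67 ± 0.52 SE, edgeR adjusted p = 0.016). It was found in 1 of 46, 6 of 98, 160 of 365 and 50 of 162 cells. The controls and the LNP-Sirpa libraries were far apart. With the receptor gate the log2 fold change was 3.84 (edgeR adjusted p = 0.000434), and in non-cycling T cells it was 0.87 (edgeR adjusted p = 0.743), where the levels were 4.82, 1.53, 7.07 and 2.22 CPM. In macrophage-type barcodes it stood at 1.58, 0.644, 3.08 and 0 CPM. With a phagocyte limit of 200, H2ac8 missed the threshold in cycling T cells.

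H2ac15 and H3c3, which lie outside the fixed list and were picked after their values were seen, also rose. H2ac15 stood at 2.41, 5.29, 37.0 and 26.9 CPM (edgeR adjusted p = 0.0144) and H3c3 at 7.23, 11.9, 56.9 and 28.7 CPM (edgeR adjusted p = 0.0497). Histone genes of 1 type are nearly identical and most of their RNA lacks a poly(A) tail, so the counts of single copies are uncertain. Of the 18 tested members of the histone list, H2ac8 alone was called, and the median log2 fold change was 0.20.

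No other division list held a called gene. Of 42 origin and replication fork genes, 18 nucleotide synthesis genes, 29 mitotic kinases and cyclins and 44 spindle, kinetochore and cytokinesis genes, 0 were called by edgeR, with median log2 fold changes of 0.08, -0.16, -0.08 and 0.13. Of 20 cell cycle brakes 0 were called, with a median of 0.25. Cdkn1a, the p53-induced inhibitor p21, stood at 264, 221, 401 and 499 CPM (log2 fold change 0.92 ± 0.25 SE, edgeR adjusted p = 0.157), with both LNP-Sirpa libraries above both controls.

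T cell state genes mostly missed the threshold. Of 18 T cell receptor and signalling genes, 17 cytokines and chemokines, 27 inhibitory receptor and exhaustion genes, 27 regulatory T cell genes, 23 costimulation genes, 26 cytokine receptor genes and 17 homing genes, 0 were called by edgeR. Their median log2 fold changes were 0.27, 0.49, 0.08, 0.13, 0.06, 0.35 and 0.13. Pdcd1 (PD-1) stood at 81.9, 133, 135 and 109 CPM and Tox, a factor of exhausted cells, at 140, 195, 187 and 69.8 CPM, both with overlap. Ltb (lymphotoxin beta) stood at 34.9, 33.1, 207 and 64.3 CPM (edgeR adjusted p = 0.227), with LNP-Sirpa 1 the highest.

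Of 21 tested naive, stem-like and memory genes 1 rose, Ly6c2, and 1 fell, Igfbp4. Ly6c2 stood at 208, 196, 517 and 401 CPM (log2 fold change 1.20 ± 0.23 SE, edgeR adjusted p = 0.0459). Igfbp4, which binds insulin-like growth factors, stood at 92.8, 79.4, 21.7 and 22.4 CPM (log2 fold change -1.95 ± 0.27 SE, edgeR adjusted p = 0.0117). Neither was called with the receptor gate, where the log2 fold changes were 0.77 and -0.69 (edgeR adjusted p = 0.226 and 0.945). Ly6c2 passed in 8 of 15 alternatives and was also lost without control 2, without LNP-Sirpa 1, with DESeq2 size factors, with the stricter cell filter, with a phagocyte limit of 50 and with at least 5 division UMIs, while Igfbp4 passed in 12 of 15 and was also lost with a phagocyte limit of 50 and with at least 4 Cd3 UMIs. Igfbp4 had a UMI in 34.8%, 26.5%, 16.4% and 10.5% of the cycling T cells and in 69.3%, 58.2%, 42.5% and 22.9% of macrophage-type barcodes. The controls were the higher group in both classes, and the part of RNA from other cells was not tested.

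The metabolic lists held 1 called gene. Of 28 glycolysis and hypoxia genes and 20 mitochondrial respiration genes 0 were called by edgeR, with medians of 0.30 and 0.00. Of 25 amino acid uptake and ribosome biogenesis genes 1 rose, the cystine carrier Slc7a11, at 12.05, 4.63, 60.2 and 56.1 CPM (log2 fold change 2.95 ± 0.40 SE, edgeR adjusted p = 0.0117). It missed the threshold with the receptor gate (edgeR adjusted p = 0.226). Of 19 apoptosis and 21 dissociation and heat shock genes 0 were called by edgeR, with medians of 0.28 and 0.01.

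Several of the largest rises were genes known from activated macrophages. Nos2, the inducible nitric oxide synthase, had a log2 fold change of 5.04 ± 0.56 SE (edgeR adjusted p = 0.00446) from 3.61 and 0.662 CPM in the controls to 74.1 and 42.9 CPM with LNP-Sirpa. Slc7a2, an arginine carrier, stood at 12.05, 7.94, 94.1 and 115 CPM (log2 fold change 3.46 ± 0.34 SE, edgeR adjusted p = 0.0023). Cxcl9, a chemokine that draws CXCR3+ T cells, stood at 42.2, 77.4, 696 and 589 CPM (log2 fold change 3.40 ± 0.31 SE, edgeR adjusted p = 0.00196). All 3 separated the groups by a wide gap. Nos2 rested on 3 and 1 UMIs in the controls, against 400 and 94 with LNP-Sirpa, so the size of its change is uncertain.

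Acod1, which makes itaconate, stood at 21.7, 32.4, 150 and 147 CPM (log2 fold change 2.43 ± 0.28 SE, edgeR adjusted p = 0.00446), Fcgr4, an Fc receptor, at 25.3, 21.2, 136 and 117 CPM, and Tgm2, a transglutaminase, at 56.6, 28.5, 218 and 181 CPM. Macrophage-type barcodes showed the same order: Cxcl9 stood there at 256, 1285, 2290.1 and 1780.0 CPM, Fcgr4 at 206, 294, 618 and 508 CPM and Acod1 at 37.8, 67.4, 171 and 137 CPM. Nos2 stood there at 1.58, 5.31, 52.3 and 26.7 CPM, lower than in the cycling T cells of both LNP-Sirpa libraries, and Slc7a2 at 15.0, 43.8, 73.8 and 150.3 CPM. Among the other large rises, Fbxl5, an iron-sensing subunit of a ubiquitin ligase, stood at 22.9, 15.2, 69.8 and 121 CPM (edgeR adjusted p = 0.0282) and AA467197, a gene with a provisional symbol, at 107, 136, 423 and 637 CPM (edgeR adjusted p = 0.0129). Of the 39 genes that rose, 19 had a higher mean level with LNP-Sirpa in macrophage-type barcodes than in cycling T cells, against 32.9% of all tested genes. The part of RNA from macrophages in these rises was not tested. Under the receptor gate, 42 of the 62 genes that rose had the higher level in macrophage-type barcodes. The share over all genes tested under this gate was not computed, so this count stands without a comparison. Cxcl9, Slc7a2, Nos2, Acod1 and Fcgr4 were also called under the receptor gate. But Cxcl9 missed the threshold with a phagocyte limit of 50, of 200 or none, and Slc7a2 and Fcgr4 missed it with none. Tgm2 missed it with a limit of 50. Fbxl5 missed it with a limit of 50, of 200 or none, with the stricter cell filter and with at least 5 division UMIs.

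Falls at sizeable levels were few. 3 of the 19 genes that fell averaged at least 50 CPM, and these were Gzmc, Igfbp4 and Ccl17. Ccl17, a chemokine of dendritic cells, stood at 81.9, 97.3, 21.7 and 21.9 CPM (log2 fold change -2.04 ± 0.27 SE, edgeR adjusted p = 0.011), and 5 cells held 91.2%, 95.9%, 55.6% and 97.9% of its UMIs. Its call was lost with a phagocyte limit of 50 or 200 and with none. Pcolce, a collagen-processing factor of fibroblasts named after its values were seen, stood at 61.5, 92.0, 16.9 and 22.4 CPM and was too low to be tested with the receptor gate.

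The treatment effect was also compared between cycling and non-cycling T cells of the same libraries, with the library as a block. In non-cycling T cells 78 of 10950 genes passed (0.712%), 77 higher (0.703%) and 1 lower (0.00913%). 21 genes were called in both, which is 36.2% of those in cycling and 26.9% of those in non-cycling T cells. The classes come from the same 4 libraries, so the lists are not independent. The interaction passed in 27 of 11121 genes (0.243%), 4 (0.036%) with a higher and 23 (0.207%) with a lower effect in cycling cells. With the receptor gate 14 passed, and none of the 5 leading genes was among them. Neither Gzmb nor Gzmc was called in non-cycling T cells, where Gzmb stood at 429, 249, 700.0 and 888 CPM and Gzmc at 1767, 208, 718 and 211 CPM. For Gzmb both LNP-Sirpa libraries lay above both controls there too, so the missing call does not set the classes apart. For Gzmc the groups overlapped there.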

How the data were processed

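Single-cell RNA libraries of CD45+ cells from MC38 tumours were made with the DNBelab C Series kit, per the labels. The deposited values are UMI counts per gene and barcode, and PISA is named as the counter per the file headers. Per the submitters' processing notes the aligner was STAR 2.5.1b and the build GRCm39. Cell calling is not given in the sources used here. Counts were summed over the cycling T cells of each library. Tests across genes used the quasi-likelihood F test of edgeR 4.0.16 (run in R 4.3.3) after filterByExpr and TMM scaling, with a robust fit and a Benjamini-Hochberg threshold of 0.05, and with SE as the log2 fold change over the root of F. Shares were compared by exact permutation tests over libraries, with 95% Wilson intervals for counting error only. DESeq2 1.42.0 and other filters served as alternatives. Scrublet (scanpy 1.11.5) marked 1 doublet in all and did not work, so the top 5% of scores were left out in the stricter cell filter. In the order used above, these scores took in 8.70%, 4.08%, 10.7% and 14.2% of the cycling T cells. Of the non-cycling T cells they took in 3.45%, 1.61%, 5.42% and 4.93%. The part of doublets among the cycling T cells was not tested. The edgeR fits of LNP-Sirpa against control in cycling and in non-cycling T cells were tried on simulated counts. The interaction fit and the alternative fits were not. Replicates differed beyond sampling noise (chi-square per degree of freedom 4.87 and 9.68). The members and gene lists were chosen with earlier results of these data known. Named genes are the 10 largest rises and falls past the threshold at a mean of at least 50 CPM, up to 4 called members per list, and list members given as values. Genes of the rule were given no call, and predicted genes were not named. Promoters come from RefSeq (GRCm38.p6). The oligo libraries were not analysed here.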

Additional observations from a re-analysis of the deposited data

Results flagged for a closer look

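For 5 genes the treatment effect differed between cycling and non-cycling T cells by the test of the difference itself (edgeR's quasi-likelihood interaction test on 8 sums from 4 libraries, library as a block). The difference is the log2 effect in cycling minus that in non-cycling T cells. For the chemokine Cxcl1 it was -3.12 ± 0.27 SE (adjusted p = 0.000154), with 48.2, 177, 23.5 and 52.5 CPM in cycling and 7.23, 34.1, 35.0 and 92.7 CPM in non-cycling T cells of control 1, control 2, LNP-Sirpa 1 and LNP-Sirpa 2. Cxcl1 was called in neither class alone (edgeR adjusted p = 0.625 in cycling and 0.62 in non-cycling T cells). In cycling T cells it rested on 40, 267, 127 and 115 UMIs, of which 5 cells held 87.5%, 81.6%, 40.2% and 59.1%. The tetraspanin gene Cd9 differed by -1.58 (adjusted p = 0.0146), and cyclin D1 (Ccnd1), which drives entry into the cycle, by -1.53 (adjusted p = 0.0146). Ccnd1 stood at 288, 337, 224 and 187 CPM in cycling and 93.9, 79.9, 210 and 124 CPM in non-cycling T cells. The kinase gene Sgk1 differed by -1.40 (adjusted p = 0.0232) and the interferon-induced Ifitm3 by -1.06 (adjusted p = 0.0235). Ifitm3 stood at 387, 411, 1054 and 973 CPM in cycling and 192, 207, 1234 and 915 CPM in non-cycling T cells, so the classes differed in the controls rather than with LNP-Sirpa.

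With the receptor gate none of the 5 was called, and the differences were -0.12 for Cxcl1, -0.63 for Cd9, -0.45 for Ccnd1, -0.22 for Sgk1 and -0.06 for Ifitm3. The cells that this gate leaves out held 81.5%, 92.1%, 61.4% and 74.6% of the UMIs of the fibroblast list without Thy1 in the cycling T cells. The gate sets a limit on these same genes, so a high share was set by the choice of cells. Those cells also held 37.8%, 37.8%, 13.5% and 31.9% of all UMIs of the cycling T cells. Their part in the 5 differences was not tested. Without LNP-Sirpa 1 the calls of Ccnd1, Sgk1 and Ifitm3 were lost, without control 2 that of Sgk1, and with the stricter cell filter those of Ccnd1 and Ifitm3.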

How the results depend on the processing

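The alternatives with a changed phagocyte limit of 200, with none, and with the receptor gate were chosen after seeing the data. Of 58 genes called in cycling T cells, the count became 115 with DESeq2, 487 with no filter on low counts, 17 with the stricter cell filter, 9 with a phagocyte limit of 50 and 22 with at least 5 division UMIs. It was 57, 82, 50, 39 and 70 with DESeq2 size factors, at least 4 Cd3 UMIs, a limit of 200, no limit and the receptor gate. Leaving out 1 library gave 46 to 563, the highest without control 1 (302 higher and 261 lower). Without control 2 it was 114, and without LNP-Sirpa 2 it was 169. The replicate block gave 193, 107 higher and 86 lower. The numbers do not pair the libraries by any label, and same-numbered deviations correlated at r = 0.165 over 10232 genes. The cause of these changes was not tested.

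The interaction count of 27 became 165 with no filter, 16 with the stricter cell filter and 14 with the receptor gate, and 26 to 117 without 1 library, the highest without LNP-Sirpa 2. The share of cycling cells among T cells reversed with a phagocyte limit of 200 (-2.17 percentage points) and with none (-5.81), with a range of -2.01 to 4.01 without 1 library. The S phase share reversed with a limit of 200 (-0.0433), with none (-0.602), with the receptor gate (-0.801) and without control 2, with a range of -0.574 to 3.99. The CD8 share reversed after thinning (-1.77) and ranged from 1.25 to 14.2 without 1 library. The Foxp3 share ranged from -14.6 to -1.36 and the share of all barcodes from 1.04 to 2.77. Of the named called genes, Acod1 and Nos2 passed under all 15 alternatives. The gene test after thinning and all tests within CD8 or Foxp3 cyclers were not run, since too few cells were left in the controls. Depth limits the controls most, with 46 and 98 cells.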

Other observations

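Use of the T cell receptor beta variable segments was read in cells whose Trbv UMIs all fell on 1 segment. Few cells allowed it: 0, 12, 35 and 15 CD8 cyclers in control 1, control 2, LNP-Sirpa 1 and LNP-Sirpa 2. In control 2, 8 of the 12 carried Trbv12-2, and in LNP-Sirpa 2, 5 of the 15 did, as did another 5 for Trbv13-1. LNP-Sirpa 1 was spread over 13 segments, with 4 of 35 on Trbv12-2. Among non-cycling T cells Trbv12-2 led in all 4 libraries, with 40.0%, 35.7%, 20.5% and 17.3% of such cells (tied with Trbv2 in LNP-Sirpa 2). Segments share sequence and a 3' assay reads them rarely, so these are counts with no test.

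S phase genes were also present in some T cells outside the rule. At or above the median S phase UMIs of the cycling T cells of their own library stood 16 of 233, 13 of 554, 41 of 1481 and 22 of 1016 T cells that missed the division limit.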
